A study of Arabidopsis thaliana with 18 samples.

Results

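Transcripts that were richer in polysome RNA than in steady-state RNA in darkness, after 0.5 h of light and after 4 h of light form a set of 140 nuclear genes of Arabidopsis thaliana, each read by 1 probe set of an Affymetrix array. They were chosen by their measured values. The mean log2 signal in polysome RNA had to exceed that in steady-state RNA by at least 0.6 in each of the 3 light conditions, and the mean polysome signal had to reach 200 in each. Of the 22810 probe sets on the array, 22746 are not controls and 13513 of these list exactly 1 gene. Taking out 69 probe sets of plastid-encoded genes and 148 of ribosomal proteins left 13296 eligible probe sets, of which 4696 passed the signal bound and 288 the difference bound. The 140 that passed both make up 1.053% of the eligible probe sets and 2.981% of those past the signal bound. All 140 are protein-coding, all list different genes, and all passed the filter on low signals used for the tests below.

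The study compared polysome and steady-state RNA during de-etiolation, the change of a dark-grown seedling into a green one. The groups were polysome RNA and steady-state RNA from 4-day-old etiolated Col-0 seedlings, each kept dark, given 0.5 h of white light or given 4 h of white light of 70 to 80 µmol per square metre and second. Aerial parts were used, wild type throughout, with 3 arrays for each of the 6 groups, which the labels call biological replicates. How many seedlings made up a sample is not stated in the sources used here.

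Ribosomes that translate the same mRNA one behind the other form a polysome, which sinks deeper in a sucrose gradient than a free mRNA or a single ribosome. RNA from the polysome part of the gradient therefore stands for mRNA under translation, and steady-state RNA for all mRNA in the tissue. Once light reaches a dark-grown seedling, the hypocotyl slows its elongation and the cotyledons open and build chloroplasts, which calls for many new proteins. The signals had been scaled so that every array has the same trimmed mean. A positive difference between polysome and steady-state signal thus says that a transcript held a larger share of the polysome RNA than of the steady-state RNA, and says nothing of the total amount of polysomes. Polysome RNA passed through a gradient and lithium chloride precipitation and total RNA did not, so loading on ribosomes and the route of extraction cannot be told apart in these differences.

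The tissue label was set against marker genes. Of 5 aerial markers 1 was measured alone by a probe set, AT2G39730 (RCA, the activase of the carbon-fixing enzyme rubisco), at 4825 to 26172 signal units over the 18 arrays. Of 5 root markers 3 were measured. EXPA7 (AT1G12560, a root-hair expansin) lay at 3.1 to 50.4 and the root peroxidase AT1G30870 at 3.7 to 25, both low. AT3G09260 (PYK10, a beta-glucosidase of root and hypocotyl) lay at 17856 to 23971. The summed root markers, almost wholly PYK10 signal, spanned 19369 to 23277 in the polysome arrays and 17873 to 23985 in the steady-state arrays, overlapping ranges. No seed-reserve marker was measured.

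The size of the excess was moderate and much alike in the 3 light conditions. The members' median difference was 0.86 in darkness, 0.81 at 0.5 h and 0.89 at 4 h on the log2 scale, beside medians of 0.07, 0.06 and 0.02 over the 4696 probe sets past the signal bound. These differences chose the members, so they are a description with no test. For 76 members the smallest of the 3 differences was at least 0.7, for 40 at least 0.8, for 11 at least 1 and for 4 at least 1.3. The largest difference fell in darkness for 44 members, at 0.5 h for 39 and at 4 h for 57. At 4 h the difference was within 0.5 of its value in darkness for 136 of the 140.

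**Figure D1:**
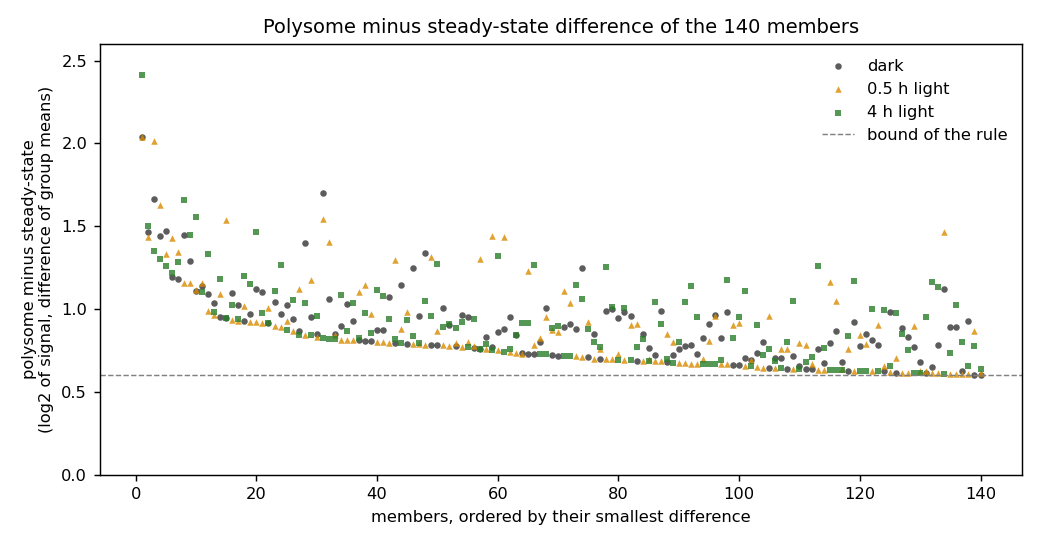
Each member's polysome minus steady-state difference (y axis, log2 of signal, difference of means of 3 arrays) in darkness (black circles), 0.5 h light (orange triangles) and 4 h light (green squares), with members ordered along the x axis by their smallest difference. AT5G10770 stands alone at the left at 2.04 to 2.41, 4 members have all values at or above 1.3, and most lie between 0.6, the bound of the rule (dashed), and 1.

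The separation was visible in single arrays for most members. The lowest polysome array lay above the highest steady-state array for 130 members in darkness (19.4% of the 4696 did so), for 124 at 0.5 h (16.9%) and for 136 at 4 h (20.7%). It did so in all 3 conditions for 116 members (6.56% of the 4696). The rule used this contrast, and nothing is read from these shares. When polysome and steady-state arrays with the same replicate number were set against each other, 137 members had all 9 differences above 0, and the lowest number in a member was 8.

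Membership near the bounds was a matter of small margins. Just inside the difference bound lay AT5G48340, with a smallest difference of 0.6019, and the DOF-type transcription factor AT1G29160, with 0.6021. Just outside lay AT1G67250 with 0.5974 and AT3G55470 with 0.5968. At the signal bound, the RNA polymerase subunit NRPB9B (AT4G16265) with a lowest polysome mean of 212.8 and AT1G05210 with 214.9 were inside, and AT4G18670 with 199.2 and AT2G20560 with 187.3 were outside. With any 1 of the 18 arrays left out, 58 members still met the rule each time. The same bounds were also met by 18 of the 148 ribosomal protein probe sets (12.16%), by 1 plastid-encoded gene, and by 132 probe sets that list several genes or none, all outside the set by the rule. The mirror rule, steady-state above polysome RNA by the same bound, was met by 103 eligible probe sets.

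AT5G10770, of the aspartyl protease family, had the largest excess of all members. In darkness it had 1453, 1119 and 1257 signal units in the 3 polysome arrays and 203.6, 343 and 424 in the 3 steady-state arrays. At 0.5 h it had 915.5, 832 and 1105 in polysome RNA and 243, 191 and 262 in steady-state RNA. At 4 h it had 1485, 1474 and 1314.5 in polysome RNA and 294, 373 and 174 in steady-state RNA. The polysome arrays thus spanned 832 to 1485 units and the steady-state arrays 174 to 424, with no overlap within or between conditions. The difference was 2.04 ± 0.69 in darkness, 2.04 ± 0.11 at 0.5 h and 2.41 ± 0.47 at 4 h (SD over 3 pairs of arrays of the same number). Light did not pass the test for this gene, with a change at 4 h over dark of 0.17 ± 0.26 (SE, adjusted p = 0.68) in polysome RNA and of -0.21 ± 0.26 (adjusted p = 0.593) in steady-state RNA, both from limma. Among members of related function, the cystatin AT5G47550, an inhibitor of cysteine proteases, had differences of 0.88, 0.62 and 0.85 in darkness, 0.5 h and 4 h. The nicastrin AT3G52640, a subunit of the membrane protease gamma-secretase, had 0.78, 0.90 and 0.63.

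The next members by their smallest difference were 3 regulatory or scaffold proteins and several genes of unstated role. AT3G06410, a CCCH-type zinc-finger protein of a family that binds RNA, had 1453, 982 and 892 units in dark polysome RNA and 461, 375 and 348 in dark steady-state RNA. At 4 h it had 1448, 1338 and 1062 in polysome RNA and 582, 375 and 414 in steady-state RNA. No arrays overlapped, and its differences of 1.468, 1.434 and 1.503 in darkness, 0.5 h and 4 h were among the most even of the leading members. The WD40-repeat protein AT5G08560 was a more abundant signal, at 4504 ± 828 units in polysome RNA and 1645 ± 192 in steady-state RNA in darkness (SD, n = 3 each). At 4 h it had 4604 ± 615 in polysome RNA and 1883 ± 373 in steady-state RNA. WD40 repeats form a propeller on which other proteins assemble, and the differences of this one were 1.442, 1.63 and 1.301. AT5G05570, a WD40-repeat protein of the tomosyn type, which in animals and yeast binds the membrane-fusion SNARE proteins, had 1.19, 1.43 and 1.22.

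AT2G46630 had 434 ± 35 units in polysome RNA and 139.9 ± 38 in steady-state RNA in darkness, with differences of 1.67, 2.01 and 1.35 over the 3 conditions. AT1G28400 had differences of 1.47, 1.33 and 1.26, AT1G05205 had 1.18, 1.34 and 1.28, and AT5G16450 had 1.45, 1.16 and 1.66. In none of these 4 did the polysome and steady-state arrays overlap. Members lay on all 5 chromosomes, with 36, 23, 29, 17 and 35 on chromosomes 1 to 5. In 3 cases a member is the direct neighbour of another in the reference gene table. These pairs are AT3G06410 with AT3G06420 (ATG8H), AT1G28400 with AT1G28395, and AT1G05205 with AT1G05210. The second gene of each pair had smaller differences, from 0.63 to 1.08.

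**Figure D2:**
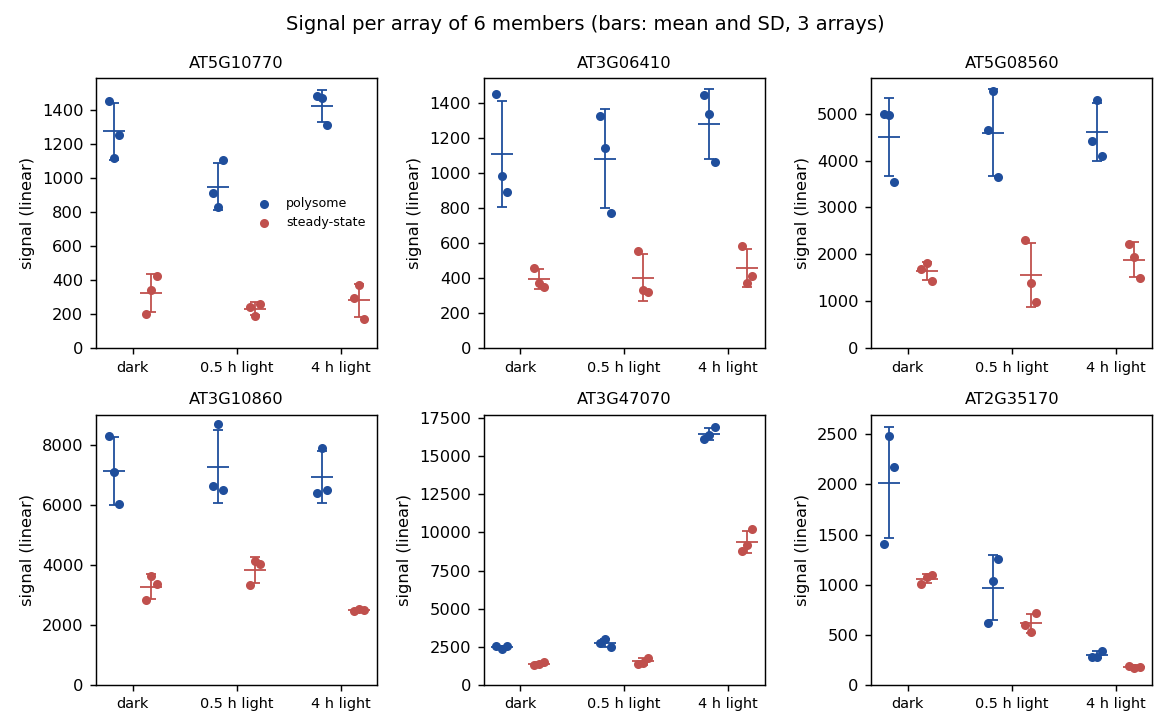
Signal in each array (y axis, linear units, separate scale per panel) of 6 members in darkness, 0.5 h light and 4 h light, polysome RNA in blue left of steady-state RNA in red, with mean and SD of 3 arrays. AT5G10770, AT3G06410, AT5G08560 and AT3G10860 were not called for light in polysome RNA, AT3G47070 is high at 4 h and AT2G35170 is low at 4 h, in both kinds of RNA.

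A role could be given from general knowledge for 71 of the 140 members, and 69 are named only. The classes of role that follow were formed after the members were known and are descriptions. The gene word lists written for the tests found few members, and the gene table holds few product names to match. Of 14 lists 4 held 1 member each. They were cell wall (1 of 69 measured genes, TBL38), glycosyltransferases (1 of 35, GALT29A), transcription (1 of 51, KUA1) and defence and stress (1 of 58, MSRB9), beside 140 of all 8587 measured genes. The other 10 lists, among them photosynthesis, transport and proteases, held 0 members, and AT5G10770 carries no word of its protein family in the table.

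Mitochondrial proteins held 9 members, 7 of them subunits of the respiratory chain. The respiratory chain of the inner mitochondrial membrane carries electrons from complex I through complex III to cytochrome c oxidase, and its nuclear-encoded subunits are made on cytosolic ribosomes and imported. Subunits of complex III were AT3G10860, AT4G32470 and AT2G40765. Those of complex I were AT5G47570, AT1G76200 and AT4G00585, and AT4G21105 belongs to cytochrome c oxidase. AT5G41685 is a subunit of the outer membrane translocase, the entry gate for imported proteins, and AT2G35795 a DnaJ-type subunit of the inner membrane import motor.

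AT3G10860 had 8310, 7116 and 6028 units in dark polysome RNA and 2828, 3626 and 3381 in dark steady-state RNA. At 4 h it had 6394, 7925 and 6495 in polysome RNA and 2461, 2530.4 and 2513 in steady-state RNA. The groups stood apart, and the polysome signals of the dark and 4 h arrays overlapped while the steady-state arrays at 4 h all lay below those in darkness. Its differences were 1.12, 0.92 and 1.47 in darkness, 0.5 h and 4 h. AT1G76200 showed the like pattern, with 5875 ± 141 units in polysome RNA and 3435 ± 405 in steady-state RNA in darkness, and 6247 ± 431 in polysome RNA and 2585 ± 122 in steady-state RNA at 4 h (SD, n = 3 each). Its differences were 0.78, 0.87 and 1.27.

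Over the 9 mitochondrial members the median difference was 0.78 in darkness, 0.76 at 0.5 h and 1.11 at 4 h. The rule bounds these values, so the rise at 4 h was not tested. The median change from dark to 4 h was -0.02 in polysome RNA and -0.34 in steady-state RNA. In polysome RNA 0 of the 9 passed the light test at 4 h over dark, beside 35.7% of all probe sets tested. In steady-state RNA 1 of 9 did, beside 34.0% of all. With 9 genes, nothing about the class is read from these counts. The member called was AT1G76200, which fell by 0.40 (limma, adjusted p = 0.0172). That call was lost without replicate 1 or 3 of darkness or replicate 2 of 4 h, with an adjusted p of 0.0749 at most. It was kept in 10 of 14 alternative fits, which left out an array or changed the processing.

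The other subunits of the same complexes were examined for comparison. Of 40 nuclear-encoded subunits of complexes I, III and IV listed from general knowledge, 32 were measured alone by a probe set, and 7 of these are members. Over all 32 the median difference was 0.31 in darkness, 0.18 at 0.5 h and 0.60 at 4 h, beside 0.03, 0.00101 and -0.06 over all probe sets tested. The difference was above 0 in all 3 conditions for 19 of 32, the 7 members among them by the rule. It was larger at 4 h than in darkness for 27 of 32, the members contributing 6 of 7. The median change of the difference from darkness to 4 h was -0.06 over the 4696 probe sets past the signal bound. Shares of all probe sets meeting either condition were not computed, so these counts are descriptions. The 25 subunits that are no members had medians of 0.23, 0.06 and 0.55. With every array moved to a common median the median difference at 4 h over all probe sets tested became 0.08 in place of -0.06. By complex, the medians in darkness were 0.64 for 7 measured subunits of complex III, 0.29 for 17 of complex I and -0.01 for 8 of cytochrome c oxidase. Without the members, which the rule held at 0.6 or more, these medians were 0.51, 0.24 and -0.06.

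**Figure D3:**
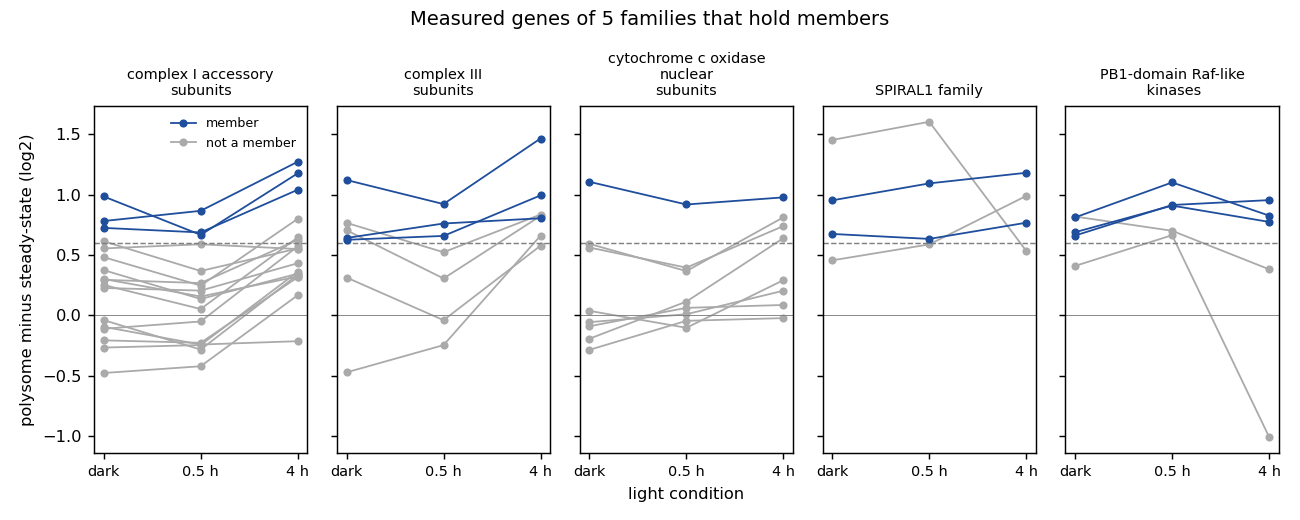
Polysome minus steady-state difference (y axis, log2) in darkness, 0.5 h and 4 h light (x axis) of each measured gene in 5 families, members in blue and the others in grey, the bound of 0.6 dashed. Most respiratory subunits, members or not, lie higher at 4 h than in darkness, and 2 of 4 measured SPIRAL1 genes and 3 of 5 PB1-domain Raf-like kinases are members.

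Microtubule-associated proteins held 3 members. SPIRAL1 (SPR1, AT2G03680) is a small protein on cortical microtubules, and plants without it twist as they elongate. It had 5664 ± 2044 units in polysome RNA and 2864 ± 705 in steady-state RNA in darkness (SD, n = 3 each), with differences of 0.95, 1.09 and 1.18 over the 3 conditions. Its relative SP1L3 (AT3G02180) had 5077 ± 91 in polysome RNA and 3200.0 ± 405 in steady-state RNA in darkness, with differences of 0.67, 0.63 and 0.77. Of the 6 genes of the family 4 were measured. SP1L4 and SP1L5 had differences above 0 in every condition but lowest polysome means of 86.8 and 66.5, under the signal bound. The TPX2-domain microtubule-binding protein AT2G35880 had differences of 0.92, 1.01 and 0.92. It fell at 4 h by 0.95 in polysome RNA (adjusted p = 0.0129) and by 0.95 in steady-state RNA (adjusted p = 0.0131). Both calls were lost without replicate 1 of the dark or replicate 3 of the 4 h arrays of that RNA (adjusted p at most 0.0944).

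Kinases held 9 members, 5 of them Raf-like kinases, which in plants act in ethylene, abscisic acid and drought signalling. Of 7 Raf-like kinases with an N-terminal PB1 domain 5 were measured, and 3 are members. AT2G35050 had 3937 ± 586 units in polysome RNA and 2263 ± 514 in steady-state RNA in darkness, with differences of 0.81, 1.10 and 0.83. AT5G57610 had 0.69, 0.91 and 0.77, and AT3G24715 had 0.66, 0.91 and 0.95. Of the measured relatives, AT3G46920 had 0.82, 0.70 and 0.38, short of the bound at 4 h. AT1G04700 had 0.41, 0.66 and -1.01, below 0 at 4 h, with a lowest polysome mean of 31.4, under the signal bound. The other Raf-like members were AT1G18160 and AT5G50180. The remaining kinases were the AGC-type AT2G36350, the cyclin-dependent-kinase-like AT1G54610, the leucine-rich repeat receptor kinase AT4G36180 and the phosphatidylinositol phosphate kinase AT1G10900, with differences between 0.64 and 1.18.

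Protein turnover held 8 members. They were the ubiquitin-conjugating enzymes UBC18 (AT5G42990) and UBC30 (AT5G56150), the ubiquitin-specific protease UBP15 (AT1G17110), the ubiquitin ligases or RING-type proteins AT3G61790, AT3G03550 and AT3G10810, BPM3 (AT2G39760), which brings substrates to CUL3 ligases, and ATG8H (AT3G06420), a ubiquitin-like protein of the autophagosome membrane. Their median difference was 0.92 in darkness, 0.86 at 0.5 h and 0.72 at 4 h. UBC30 had 3299, 3123 and 2418 units in dark polysome RNA and 1288, 1588 and 1637 in dark steady-state RNA. Its arrays did not overlap, and its light change at 4 h of 0.10 ± 0.15 (SE) in polysome RNA did not pass the test.

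Nuclear proteins held 10 members. The small RNA polymerase subunits NRPB12 (AT5G41010) and NRPB9B were both among them, with differences of 0.91, 0.78 and 0.91 for NRPB12 and 0.81, 1.15 and 0.97 for NRPB9B. The coactivator KIWI (AT5G09250) had 0.76, 0.63 and 1.26. The transcription factors were KUA1 (AT5G47390), a MYB-type protein that promotes leaf cell expansion, the MYB-type AT1G58220, the DOF-type AT1G29160 and JKD (AT5G03150), a zinc-finger protein of root tissue patterning. The remaining nuclear members were the PWWP-domain proteins AT5G27650 and AT3G09670 and the ARID-domain protein AT2G17410. SIM (AT5G04470), an inhibitor of cyclin-dependent kinases that stops division in trichomes, had 6748 ± 1275 units in polysome RNA and 3502 ± 690 in steady-state RNA in darkness, with differences of 0.95, 0.74 and 0.76. POL (AT2G46920), a protein phosphatase of stem-cell maintenance, had 1.15, 0.88 and 0.79.

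The secretory route and the cell surface were represented by small numbers of members. AT3G48570, the gamma subunit of the Sec61 channel through which proteins enter the endoplasmic reticulum, had 420.4 ± 66 units in polysome RNA and 178 ± 35 in steady-state RNA in darkness, with differences of 1.25, 0.71 and 1.06. The Yos1-like AT2G37975, of transport from the endoplasmic reticulum to the Golgi, had 0.94, 0.87 and 1.06, and the exocyst subunit AT1G10180 had 0.88, 0.80 and 1.12. The 7 cell wall and secreted proteins had differences between 0.61 and 1.01. They were the lipid transfer proteins AT3G18280 and AT5G05960, the dirigent protein AT2G21100, the germin-like AT3G10080, the thaumatin-like AT5G40020, TBL38 (AT1G29050), of a family that acetylates wall polysaccharides, and GALT29A (AT1G08280), a Golgi galactosyltransferase of arabinogalactan proteins.

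Stress-related proteins held 7 members. The dehydrin HIRD11 (AT1G54410), a hydrophilic protective protein, was among the most abundant signals, at 14819, 13268 and 10139 units in dark polysome RNA and 6625, 6518 and 6124 in dark steady-state RNA. At 4 h it had 14556, 15867 and 13595 in polysome RNA and 5758, 6932 and 5669 in steady-state RNA. Its arrays did not overlap, and its differences were 0.97, 0.89 and 1.27. The universal stress protein AT3G11930 had 1.09, 0.99 and 1.34. The late embryogenesis abundant proteins AT3G02480 and AT2G23120 had 1.25, 0.79 and 0.84, and 0.78, 0.61 and 1.13. The HSP20-like chaperones AT2G19310 and AT2G27140 and the methionine sulfoxide reductase MSRB9 (AT4G21850), which repairs oxidised methionine, complete the class.

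Light changed about as large a share of the members as of all probe sets. The rule did not use the light contrasts, but it held every polysome mean of a member at 200 or more, so a member could not be strongly reduced to a low level. Each contrast was tested with limma and adjusted over all 15922 probe sets kept by the filter. In these bulk samples fewer cells of a type and less RNA per cell cannot be told apart. At 4 h against darkness in polysome RNA, 21 members rose and 24 fell, or 32.1% of the 140, beside 35.7% of all probe sets tested (15.6% higher, 20.1% lower). In steady-state RNA 23 rose and 26 fell, or 35% of the members, beside 34.0% of all (16.9% higher, 17.1% lower). Against 0.5 h of light, the 4 h arrays gave 23 higher and 20 lower members in polysome RNA (33.4% of all probe sets called) and 22 higher and 26 lower in steady-state RNA (33.9% of all called). With 1 array left out in turn, 35 of the 45 calls in polysome RNA and 33 of the 49 in steady-state RNA at 4 h over dark were kept each time.

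The median change of the members at 4 h over dark was -0.03 in polysome RNA and -0.04 in steady-state RNA, beside -0.09 and -0.0067 over all probe sets tested. With every array moved to a common median, the last of these became -0.12. Both kinds of RNA gave the same call for most members that responded. At 4 h 19 members rose in both, 21 fell in both, 0 were called in opposite directions and 14 were called in 1 kind alone, of which 5 in polysome RNA and 9 in steady-state RNA. Polysome and steady-state RNA had to differ by the rule in each condition, which limits how far the light changes of a member could part. In neither kind were 86 members called, with changes of 0.83 at most, and 76 members were called in none of the 6 light contrasts. Joint calls over all probe sets were not counted. Whether members differ from other transcripts in this was therefore not examined, and these counts are descriptions. Changes of 2-fold or more were called in polysome RNA for 13 members upward (9.28% of all probe sets) and 7 downward (8.78% of all). In steady-state RNA they were called for 13 upward (10.4% of all) and 10 downward (7.95% of all).

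**Figure D4:**
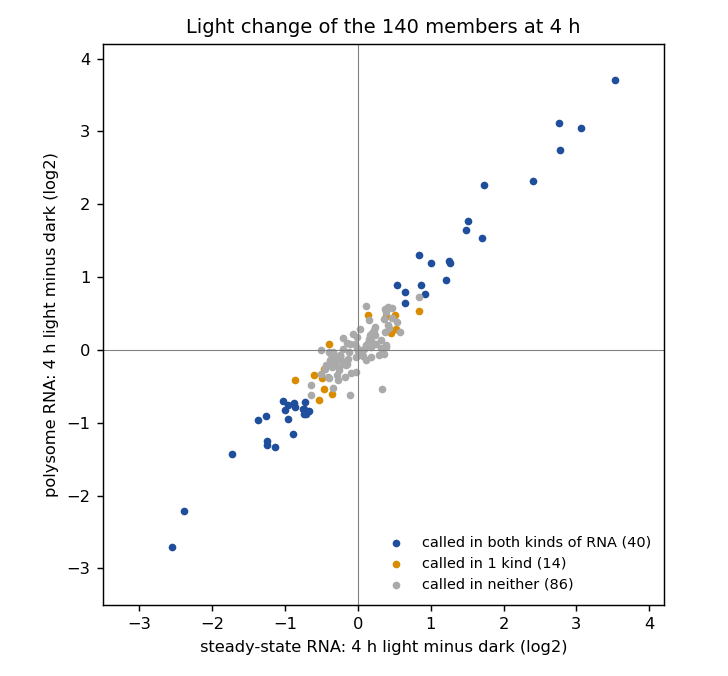
Change at 4 h light minus dark (log2) of each member in polysome RNA (y axis) against steady-state RNA (x axis), with members called in both kinds of RNA in blue, in 1 kind in orange and in neither in grey. The 40 members called in both changed the same way in both, from -2.71 to 3.70 in polysome RNA.

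**Figure D5:**
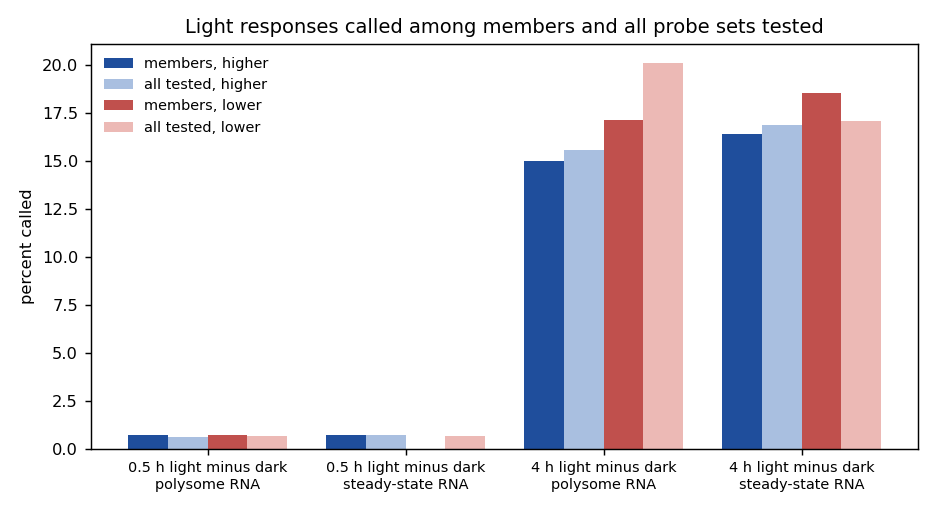
Percent called higher (blue) and lower (red) among the 140 members (dark bars) and all 15922 probe sets tested (pale bars) for light minus dark at 0.5 h and 4 h in polysome and steady-state RNA. The dark and pale bars lie within 4 percentage points of each other in every comparison.

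The strongest rise was that of AT5G55620, of unstated role. It had 4317, 4117 and 4394 units in polysome RNA at 4 h, against 359.5, 335 and 296 in darkness. In steady-state RNA it had 2414, 2594 and 2349 at 4 h, against 225, 234 and 183.5 in darkness. It rose by 3.70 ± 0.19 in polysome RNA (SE, adjusted p = 2.71e-11) and by 3.52 ± 0.19 in steady-state RNA (adjusted p = 4.27e-11). Its polysome minus steady-state difference was 0.63, 0.61 and 0.80 in darkness, 0.5 h and 4 h, values that the rule held at 0.6 or more.

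AT3G47070, a thylakoid soluble phosphoprotein that binds to light-harvesting antennae, was the only plastid protein among the members whose role is given. It had 16137, 16413 and 16916 units in polysome RNA at 4 h, against 2515, 2339 and 2533 in darkness. In steady-state RNA it had 8769, 9153 and 10199.6 at 4 h, against 1269, 1349.5 and 1488 in darkness. The 4 h and dark arrays did not overlap in either kind of RNA. It rose by 2.74 ± 0.13 in polysome RNA (adjusted p = 9.37e-12) and by 2.78 ± 0.13 in steady-state RNA (adjusted p = 9.29e-12), with differences of 0.85, 0.84 and 0.82 in darkness, 0.5 h and 4 h.

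Of the other members named for the largest rises at 4 h, AT4G33660, AT1G55960 and AT1G13930 have no stated role. AT4G33660 rose by 3.11 in polysome RNA (adjusted p = 5.53e-11) and by 2.75 in steady-state RNA, to 6467 ± 326 units in polysome RNA at 4 h, against 751 ± 87 in darkness (SD, n = 3 each). AT1G55960 rose by 3.04 and 3.06 in polysome and steady-state RNA, and AT1G13930 by 2.32 and 2.41. AT1G13930 reached 25027, 21450 and 17675 units in polysome RNA at 4 h, the highest polysome mean of any member. Among members with a role, the HSP20-like chaperone AT2G19310, described with the 0.5 h values, rose by 2.27 and 1.73. The phosphatidylinositol phosphate kinase AT1G10900 rose by 1.19 and 1.26 in polysome and steady-state RNA. The late embryogenesis abundant protein AT2G23120 rose by 0.88 and 0.53, and its steady-state call was lost without replicate 1 of darkness or replicate 2 or 3 of 4 h (adjusted p at most 0.211). That call was kept in 7 of 14 alternative fits. NRPB12 rose by 0.64 in both, and both calls were lost without replicate 2 or 3 of either condition (adjusted p at most 0.139). Its polysome call was kept in 9 of 14 alternative fits and its steady-state call in 8.

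The strongest fall was that of AT2G35170, of unstated role. It had 279.7, 282 and 342 units in polysome RNA at 4 h, against 1405, 2479.9 and 2170.2 in darkness. In steady-state RNA it had 193, 168 and 181 at 4 h, against 1008, 1074 and 1095 in darkness. It fell by 2.71 ± 0.23 in polysome RNA (SE, adjusted p = 1.66e-08) and fell by 2.55 ± 0.23 in steady-state RNA (adjusted p = 3.78e-08). The arrays of the 2 conditions were far apart in both kinds of RNA.

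MSRB9 had 1722, 1761 and 1524 units in polysome RNA at 4 h, against 13178, 5950.0 and 5844 in darkness. In steady-state RNA it had 860.0, 863 and 922 at 4 h, against 7507, 3859 and 3427 in darkness. Replicate 1 was the highest of the dark arrays in both kinds of RNA, yet all dark arrays lay above all 4 h arrays. MSRB9 fell by 2.21 ± 0.35 (adjusted p = 4.75e-05) in polysome RNA and fell by 2.39 ± 0.35 (adjusted p = 1.85e-05) in steady-state RNA.

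The PB1-domain kinase AT3G24715 fell by 1.43 and 1.73 in polysome and steady-state RNA (adjusted p = 0.00291 and 0.000577), while its relatives AT2G35050, at -0.63 and -0.64, and AT5G57610, at 0.32 and 0.23, did not pass the test. AT5G40450 fell by 1.33 and 1.14, AT1G80180 by 0.96 and 1.37, and AT1G25275 by 0.91 and 1.27, all of unstated role. AT1G25275 had 4592 ± 921 units in polysome RNA at 4 h, against 8639 ± 1826 in darkness (SD, n = 3 each). AT4G18280 fell by 1.31 and 1.25, but without replicate 2 of darkness or replicate 1 of 4 h the calls were lost (adjusted p at most 0.0881 in polysome RNA and 0.127 in steady-state RNA).

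JKD fell by 1.26 in polysome RNA (adjusted p = 0.00118) and by 1.25 in steady-state RNA (adjusted p = 0.0012). KUA1 had 2418, 2106 and 2182 units in polysome RNA at 4 h, against 4050.3, 3674 and 3375 in darkness, with no overlap, and fell by 0.73 in polysome RNA and 0.87 in steady-state RNA. The Raf-like kinase AT1G18160 fell by 0.88 and 0.74, the ubiquitin ligase AT3G61790 by 0.81 and 0.76, and TBL38 by 0.79 and 0.86 in polysome and steady-state RNA. The galactosyltransferase GALT29A (AT1G08280) changed by 0.48 in polysome RNA, which missed the threshold (adjusted p = 0.0591). It rose by 0.51 in steady-state RNA (adjusted p = 0.0461), a call lost without any array but replicate 1 of darkness (adjusted p at most 0.169). Other scalings, no filter, 32 added to each signal and the compared arrays alone ended this call too. It was kept in 4 of 14 alternative fits.

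Of the 8 members with the largest excess, AT1G28400 was the only one called for light over darkness. The call was in steady-state RNA at 4 h, where 34.0% of all probe sets tested were called. AT1G28400 rose there by 0.45 (adjusted p = 0.044), a call likewise lost without any array but replicate 1 of darkness (adjusted p at most 0.172). The compared arrays alone, a common median and no intensity trend ended this call too. It was kept in 6 of 14 alternative fits. AT3G06410, AT5G08560, AT2G46630, AT5G05570, AT1G05205 and AT5G16450 changed by between -0.24 and 0.23 in polysome RNA and by between -0.39 and 0.38 in steady-state RNA at 4 h, with no call. SPR1, SP1L3, SIM and HIRD11 were likewise not called.

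After 0.5 h of light very few members were called as changed. Changes of 2-fold or less can go uncalled, since simulated log2 changes of 1 were recovered in 52.2% of cases. In polysome RNA 1 rose and 1 fell, or 1.43% of the members, beside 1.31% of all probe sets tested (0.628% higher, 0.678% lower). In steady-state RNA 1 rose and 0 fell, or 0.714%, beside 1.43% of all (0.741% higher, 0.685% lower). At an unadjusted p under 0.05, limma gave 5 of the 140 members in polysome RNA, beside 5.69% of all probe sets, and 17 of 140 in steady-state RNA, beside 7.74% of all. The members' share was thus smaller than that of all probe sets in polysome RNA and larger in steady-state RNA. In a fit blocked on the replicate number, the steady-state count at 0.5 h became 5 of 140, of which 2 higher and 3 lower, beside 2.57% of all. Without replicate 1 of the 0.5 h steady-state arrays it became 6 of 140, beside 2.44% of all. Without replicate 3 of that group it became 2 of 140, beside 1.08% of all. In each of these refits the members' share was larger than that of all probe sets. None of these differences in share was tested.

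The member that rose in both was the HSP20-like chaperone AT2G19310, of a family that holds unfolding proteins in solution. It had 1514, 2721 and 2691 units in polysome RNA at 0.5 h, against 435, 801 and 638 in darkness. In steady-state RNA it had 701, 1703 and 1813 at 0.5 h, against 212, 489.5 and 470.2 in darkness. Replicate 1 was lowest in all 4 groups, and the light and dark arrays did not overlap. It rose by 1.88 ± 0.34 (SE, adjusted p = 0.00414) in polysome RNA and by 1.82 ± 0.34 (adjusted p = 0.00604) in steady-state RNA. The steady-state call was lost in a fit of the compared arrays alone (adjusted p = 0.122). At 4 h it was still higher than in darkness, by 2.27 in polysome RNA and 1.73 in steady-state RNA.

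The member that fell was AT2G35170, by 1.08 ± 0.23 in polysome RNA at 0.5 h (adjusted p = 0.0176). It had 621, 1032 and 1258 units there, against 1405, 2479.9 and 2170.2 in dark polysome RNA. The call was lost without replicate 2 or 3 of the dark polysome arrays or replicate 1 of the 0.5 h polysome arrays, with an adjusted p of 0.148 at most. It was also lost in the compared arrays alone and without the intensity trend, and was kept in 9 of 14 alternative fits. In steady-state RNA it had 599.9, 529 and 716 units at 0.5 h, against 1008, 1074 and 1095 in darkness, with no overlap and no call.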

How the data were processed

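Affymetrix arrays of 18 samples in 6 groups of 3 were used. The deposited values are linear signal intensities; the submitters' processing notes name MAS5. They have a 2% trimmed mean of 500.04 to 500.05 in every array and medians of 153.9 to 205.7. Detection calls were not used here; precision is set by 3 arrays a group. Values under 1 (915 in all) were raised to 1 and log2 was taken. Groups came from the labels.

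The members and gene lists were chosen with earlier results of these data known. Ribosomal proteins were removed through a hand-written list of 275 loci. Gene names are those of the array annotation, brought up to date with the RefSeq gene table, and all 140 members matched. Sequences were not used here, and gene positions served only to place members on chromosomes and to find neighbouring members.

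Light contrasts were fitted with limma 3.58.1 in R 4.3.3 over all 18 arrays, with 1 mean for each group and an intensity trend, on the 15922 probe sets at or above the 30th percentile of mean log2 signal, and called at a Benjamini-Hochberg adjusted p under 0.05 over all of these. The median standard error over the members was 0.22. The fit was tested on simulated data with added log2 changes at 4 h over dark in steady-state RNA. It recovered 2.985% of changes of 0.5, 52.2% of changes of 1 and 81.8% of changes of 2. There were 7 false calls among the 15922 probe sets. Only a small part of the probe sets was given a change, whereas 34.0% were called in the real contrast. The adjusted threshold was thus stricter in the simulation, and these rates are not those of the real test at 4 h. Arrays of equal replicate number varied together: deviations from the group means correlated at 0.108 to 0.426 in all 27 pairs of equal number. In the 54 other pairs they correlated at 0.0359 at most. Deviations of a group's arrays from their own mean are tied to each other, so the 54 values do not stand apart from the 27. The labels do not say what a number shares. The main fit, with its p-values and standard errors, left the number out, and the block was an alternative.

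Named genes were AT5G10770, the 8 members of largest smallest difference, the 5 called members of largest change in each direction at 4 h (3 at 0.5 h) without overlap in each kind of RNA, up to 3 members of each word list, and 2 on either side of the bound. Members named for their role came on top and were chosen after their values were seen. Alternatives were other scalings, filters, an added 32 on each signal, no trend, the compared arrays alone, the replicate block, other bounds, and each array left out.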

Additional observations from a re-analysis of the deposited data

How the results depend on the processing

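The number of probe sets meeting the rule fell to 40 of 140 with a bound of 0.8. It was 123 to 160 with 1 array left out, the lowest without replicate 1 of the 0.5 h steady-state arrays and the highest without replicate 3 of the 4 h polysome arrays. It was 159 with quantile normalization, 200 with a common median, 119 with 32 added, 114 with a signal bound of 400 and 129 with medians in place of means. Members called at 4 h over dark ranged from 37 to 59 in polysome RNA and from 37 to 65 in steady-state RNA over all alternatives, the highest counts with the replicate block. Shares of all probe sets called at 4 h were computed for the main fit alone. The likeness of members and all probe sets was therefore not examined under the alternatives at 4 h.

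At 0.5 h the calls in polysome RNA numbered 1 in the compared arrays alone, 1 without the intensity trend and 1 to 2 with an array left out. In steady-state RNA they numbered 0 in the compared arrays alone, 5 with the replicate block and 1 to 6 with an array left out, the 6 being without replicate 1 of the 0.5 h steady-state arrays, with 2 without replicate 3 of that group. The cause was not tested. The replicate block moved no other count of members by more than 1.5 times and ended no call of a member at 0.5 h or 4 h over dark. No called member reversed direction under any alternative. Signals carry no counts here, so what depth limits is not known beyond the spread of 3 arrays.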
